A study of Mus musculus with 8 samples.

Results

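The megakaryocyte and platelet genes examined here are 9 genes that give a platelet its cytoskeleton, granules and surface receptors, namely Tubb1, Plek, Pf4, Rab27b, Itga2b, Gp9, Gp1bb, Gp5 and Treml1. They were chosen by symbol, as every probe of the array table that carries 1 of these 9 names, which gave 14 of 45281 probes and 9 of 19057 named genes. The study measured RNA by Illumina bead arrays in CD71+Ter119+ cells sorted from mouse bone marrow, and its single comparison is of 4 KAP1 knockout (KO) samples with 4 wild-type (WT) samples. CD71 is the transferrin receptor and Ter119 an erythroid surface marker, so most sorted cells should be developing red cells. Trim28 encodes KAP1, which silences chromatin at sites chosen by zinc finger proteins of the KRAB type.

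The KO samples are coded A4, A8, A11 and A13, and the WT samples C4, C6, C8 and C9. The labels describe the animals of both groups alike, as 8 to 12 weeks old, of mixed strain, and carrying a floxed Kap allele and a YFP reporter behind a floxed stop. No Cre driver is named in the labels for either group, so the cells in which the gene was deleted, and whether the WT samples carried a Cre, are not given here. Whether the 8 samples are 8 animals is likewise not stated, and p-values measure only the spread between these samples, which may be partly technical. All values are the authors' normalized probe intensities on a linear scale, in which nothing lies below 20. This lowest value is called the floor below, and a probe at the floor has only an upper bound. The intensity of 1 probe cannot be set against that of another probe.

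Megakaryocytes arise from progenitors that can also give red cells, and the lineages share factors such as GATA1, TAL1 and NFE2. A maturing megakaryocyte switches on a set of genes seen in few other blood cells, loads alpha and dense granules, and sheds platelets along microtubule tracks built from a lineage-restricted beta-tubulin. Platelets bind von Willebrand factor through the GPIb-IX-V complex and fibrinogen through the integrin of alpha IIb and beta 3. Platelets and megakaryocytes can also adhere to other marrow cells, and integrin alpha IIb is found on early progenitors and mast cells as well.

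Promoters of 8 of the 9 genes were matched in the RefSeq table of mouse build GRCm38.p6. Those of the 4 genes whose probes were higher in all KO samples than in any WT sample are printed here, since GATA and ETS factors are the classical activators of platelet genes. Each is the run of 250 bases that ends just before the annotated start. Capitals mark a GATA motif (an A or a T followed by GATAA or GATAG) or an ETS motif (GGAAGT), read on either strand, with no overlap between them.
Tubb1, chr2:174450345-174450594, plus strand: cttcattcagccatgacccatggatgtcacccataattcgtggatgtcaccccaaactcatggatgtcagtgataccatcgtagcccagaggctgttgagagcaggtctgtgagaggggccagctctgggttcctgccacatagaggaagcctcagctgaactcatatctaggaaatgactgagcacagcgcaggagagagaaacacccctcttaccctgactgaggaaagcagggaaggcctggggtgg
Plek, chr11:17008719-17008968, minus strand: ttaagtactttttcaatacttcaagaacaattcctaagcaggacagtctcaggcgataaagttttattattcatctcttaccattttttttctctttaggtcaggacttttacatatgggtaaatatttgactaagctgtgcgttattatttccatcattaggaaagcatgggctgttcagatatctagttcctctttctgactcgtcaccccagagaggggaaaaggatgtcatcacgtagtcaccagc
Pf4, chr5:90772185-90772434, plus strand: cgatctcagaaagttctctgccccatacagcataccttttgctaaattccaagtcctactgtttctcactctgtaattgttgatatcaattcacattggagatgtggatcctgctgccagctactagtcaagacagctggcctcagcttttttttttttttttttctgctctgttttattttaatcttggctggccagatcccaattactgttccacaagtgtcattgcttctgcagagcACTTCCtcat
Gp5, chr16:30310782-30311031, minus strand: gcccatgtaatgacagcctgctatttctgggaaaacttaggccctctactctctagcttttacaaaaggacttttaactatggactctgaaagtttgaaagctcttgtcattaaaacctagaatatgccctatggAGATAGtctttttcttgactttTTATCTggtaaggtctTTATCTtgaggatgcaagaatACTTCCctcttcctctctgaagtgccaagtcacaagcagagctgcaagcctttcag
The Gp5 promoter holds 3 GATA motifs and 1 ETS motif, and that of Pf4 holds 1 ETS motif close to the start. The windows of Tubb1 and Plek hold neither. Of the 8 member promoters, Gp5 and Gp1bb hold a GATA motif and Gp5, Pf4, Itga2b and Gp9 an ETS motif. Over all 32851 promoters, 26.5% hold the GATA motif, 19.7% the ETS motif and 4.82% both. These matches describe letters in a window and are not binding sites.

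The sort and the deletion were checked first. Trim28 was lower in each KO sample (A4 207, A8 171, A11 141, A13 131) than in each WT sample (C4 740, C6 395, C8 641, C9 406), by 3.28-fold (adjusted p = 0.0085 in limma); whether its probe lies in the deleted part is not given here. The erythroid regulator gene Klf1 was bright in both groups but higher in every KO sample (3003 to 3381) than in any WT sample (2286 to 2841). Tfrc, which encodes CD71, was also bright in both (KO 5270 to 12050, WT 4025 to 14924). So was the neutrophil gene S100a8 (KO 11224 to 20268, WT 20268 to 26148), and the purity of the sort was not tested. All of these genes were named after their values were seen. Over the erythroid list given below, every KO sample summed lower (116757 to 130861) than any WT sample (156479 to 204042). Each array had between 12143 and 12199 probes above the floor, a count that the normalization described below makes nearly equal. KO sample A8 had a mean correlation of 0.894 with the other KO arrays, against at least 0.934 with its own group for every other array. Log2 differences without A8 are therefore given for Plek, Itga2b and Gp5. Without A8 that of Tubb1 was 3.66 and that of Pf4 0.65, while that of Gp9 stayed at 0.14.

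Of the 9 genes, 6 had a tested probe, against 7178 of 19057 named genes over the series. Of the 14 probes, 4 were at the floor on all 8 arrays, 4 were above it on 1 or 2 arrays, and 6 were above it on at least 4 arrays and were therefore tested. These 6 probes stand for 6 genes (Tubb1, Plek, Pf4, Itga2b, Gp9 and Gp5). Tubb1, Plek, Pf4 and Gp5 met that filter largely through the KO arrays, so a count over the 6 supports no statement about the set. With limma and Benjamini-Hochberg adjustment over all 12259 tested probes, 1 of the 6 passed as higher in KO (Tubb1), none passed as lower and 5 did not pass. Over all tested probes 2.46% passed as higher, 3.11% as lower and 5.56% in either direction.

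**Figure D1:**
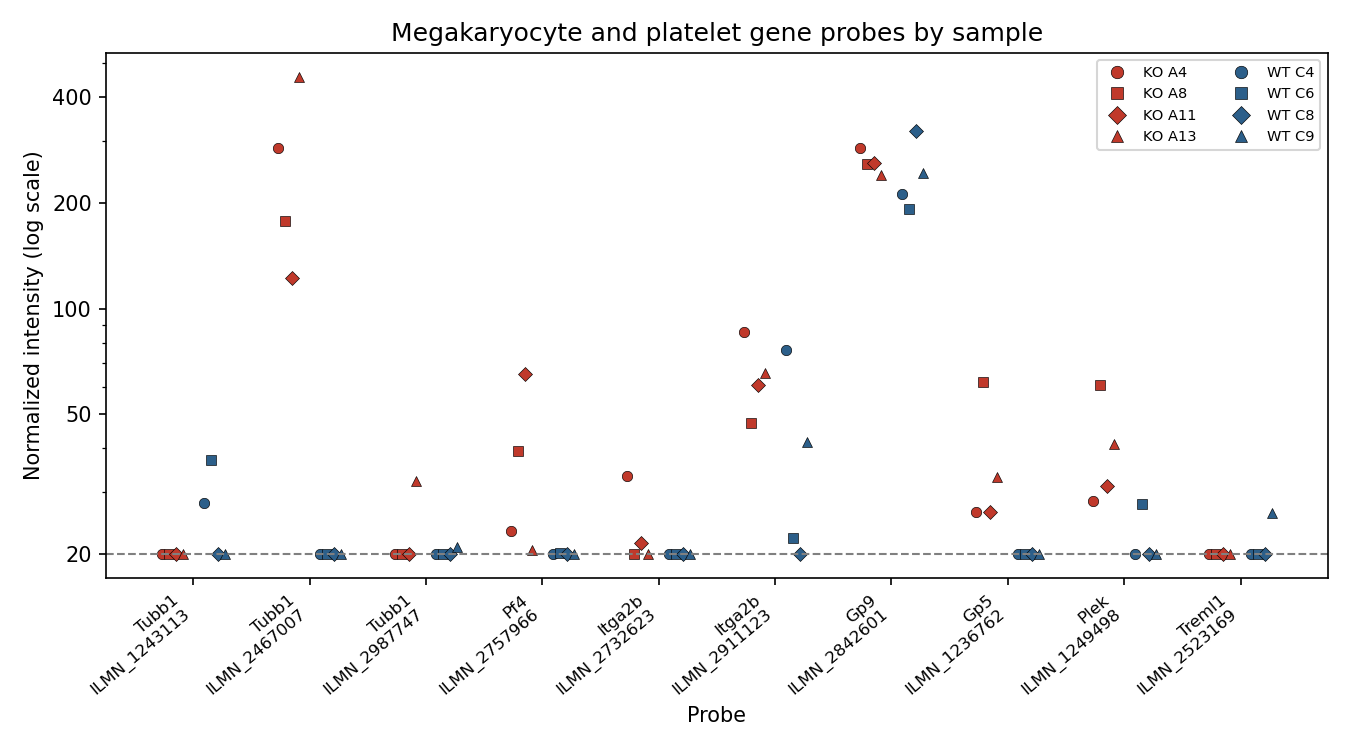
Normalized intensity on a log axis of the 10 member probes that were above the floor on at least 1 array, with a point for each of the 4 KO samples (red) and 4 WT samples (blue) and the floor of 20 as a dashed line. The ILMN_2467007 probe of Tubb1 separates the groups by a wide margin, Gp9 is above the floor in all 8 samples, and the other probes lie between the floor and 85.7.

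Tubb1 encodes the beta-tubulin that forms the marginal microtubule band of platelets. Its probe ILMN_2467007 read 288, 178, 122 and 458 in A4, A8, A11 and A13, and was at the floor in all 4 WT samples. KO was at least 11.6-fold higher, with a mean log2 intensity of 7.85 ± 0.83 (SD, n = 4) against a floor of 4.32 (log2 difference 3.53, SE 0.37, adjusted p = 0.00152 in limma). Among all 45281 probes, 162 (0.358%) shared this pattern of detection in the 4 KO samples alone. The call held in all 8 fits that left out 1 sample, with log2 differences between 3.2 and 3.84, and was lost with the p-value of the authors' deposited table (0.0877 after adjustment).

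The other probes named Tubb1 did not show this pattern. ILMN_1243113 was at the floor in all 4 KO samples and read 27.9 in C4 and 37.1 in C6, with C8 and C9 at the floor. ILMN_2987747 read 32.3 in A13 and 21.0 in C9 and was at the floor in the 6 remaining samples. Neither was above the floor on enough arrays to be tested. Both carry the RefSeq accession NM_001080971 of Tubb1 in the array table, whereas the bright probe ILMN_2467007 carries the gene name with no accession. Of 34885 probes with 1 gene name, 579 have no accession, among them 4 of the 255 named probes that passed as higher. The rise at Tubb1 therefore rests on a single probe, and which transcript that probe reads was not tested. Of 237 genes with a probe that passed as higher, 158 had further probes, and 17 of those had more than 1 probe that passed. In 47 of the 158, Tubb1 included, 1 probe passed and all others were too dim to be tested. In 26 of the 158, Tubb1 again included through ILMN_1243113, another probe had a lower mean in KO.

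Plek encodes pleckstrin, a major substrate of protein kinase C in platelets that is also made in other white blood cells. Its probe read 28.3, 60.6, 31.2 and 41.1 in A4, A8, A11 and A13. In WT it read 27.8 in C6 and was at the floor in C4, C8 and C9. The groups did not overlap, though A4 and C6 differed by little. The log2 difference was 0.83 (SE 0.27, 95% interval 0.23 to 1.43) and did not pass (adjusted p = 0.102 in limma), and without A8 it was 0.61.

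Among granule genes, Pf4 encodes platelet factor 4, a chemokine of the alpha granules. Its probe read 23.2, 39.4, 65.1 and 20.6 in A4, A8, A11 and A13, and was at the floor in WT except for 20.2 in C6. The KO values spread from just above the floor to the 65.1 of A11, and the lowest of them exceeded the highest WT value by a small margin. The log2 difference of 0.73 (SE 0.34, 95% interval -0.04 to 1.5) did not pass (adjusted p = 0.221 in limma), and without A11 it was 0.41. Rab27b encodes a small GTPase that acts in the secretion of platelet dense granules. All 3 of its probes were at the floor on all 8 arrays, so no difference was detectable.

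Among receptor genes, Itga2b encodes integrin alpha IIb, the alpha subunit of the fibrinogen receptor. Its tested probe, ILMN_2911123, read 85.7, 47.2, 60.6 and 65.8 in A4, A8, A11 and A13, and 76.1, 22.2, 20 and 41.7 in C4, C6, C8 and C9. The WT samples ranged from the floor in C8 to a value in C4 that only A4 exceeded, so the groups overlapped. The log2 difference was 0.88 (SE 0.42, 95% interval -0.06 to 1.82, adjusted p = 0.226 in limma), and it was 1.02 without A8, 1.26 without C4 and 0.62 without C8. The other probe, ILMN_2732623, read 33.3 in A4 and 21.5 in A11 and was at the floor in the 6 other samples.

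Gp9 encodes glycoprotein IX of the von Willebrand factor receptor complex, and its probe was the only member probe above the floor on all 8 arrays. It read 288, 259, 261 and 240 in A4, A8, A11 and A13, and 212, 192, 322 and 243 in C4, C6, C8 and C9. C8 was the highest sample and the groups overlapped. The mean log2 intensity was 8.03 ± 0.11 (SD, n = 4) in KO and 7.89 ± 0.32 (SD, n = 4) in WT, a difference of 0.14 (95% interval -0.32 to 0.6, adjusted p = 0.702 in limma). Without C8 the difference was 0.28, without C6 0.03 and without C4 0.08, and without A4 it was 0.09.

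Gp5 encodes glycoprotein V of the same complex. Its probe read 26.3, 61.9, 26.3 and 33.1 in A4, A8, A11 and A13 and was at the floor in all 4 WT samples. KO was at least 1.73-fold higher, a log2 difference of 0.79 (SE 0.28) that did not pass (adjusted p = 0.127 in limma), and A8 stood above the 3 other KO samples. Without A8 the log2 difference was 0.51. Gp1bb, which encodes the beta chain of glycoprotein Ib, was at the floor on all 8 arrays. Treml1 encodes a receptor stored in alpha granules that reaches the platelet surface on activation. Its probe read 26.2 in C9 and was at the floor in the 7 other samples.

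**Figure D2:**
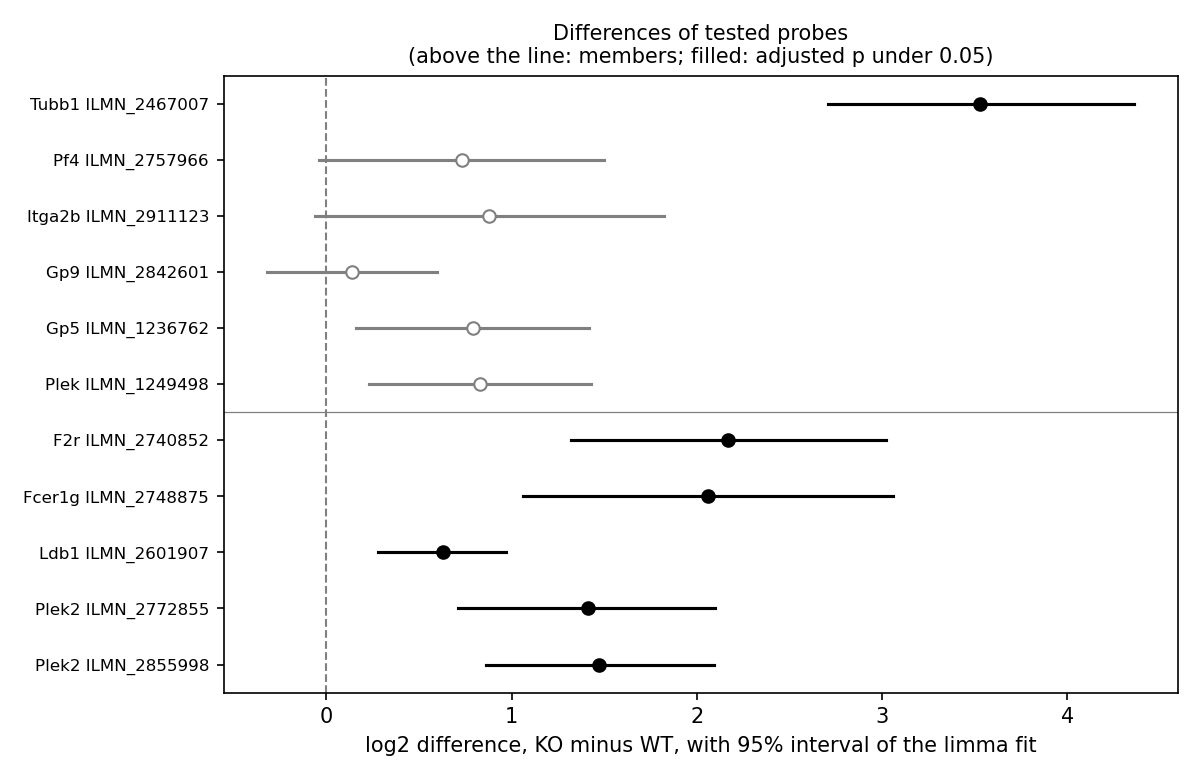
Log2 difference of KO minus WT (x axis) with its 95% interval from the limma fit for the 6 tested member probes, and below the line for the probes of F2r, Fcer1g, Ldb1 and Plek2. Filled points passed at an adjusted p under 0.05. Tubb1 is the only member that passed, and among the members the difference of Gp9 lies nearest to 0.

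Across samples, 4 of the 14 member probes were higher in KO with no overlap of the groups and none was lower in this way. Of all 45281 probes, 2.84% were higher and 1.98% lower without overlap, and of the tested probes 10.5% and 7.31%. For Pf4 and Plek the gap between the lowest KO and highest WT sample was 1.02-fold, for Gp5 1.31-fold and for Tubb1 6.11-fold. With any probe counted, 6 of the 9 genes were above the floor in each KO sample, against 3, 5, 1 and 4 in C4, C6, C8 and C9. Leaving out the bright Tubb1 probe, the counts were 5, 5, 5 and 6 in A4, A8, A11 and A13, and C6 reached as many as 3 of the KO samples. The summed intensity of the 9 genes, each by its brightest probe, was 627 or more in every KO sample, at most 918, and at most 482 in WT, where it was lowest in C6 (362). Without Tubb1 it was 460 to 528 in KO and 342 to 462 in WT, so that A13 and C8 overlapped. Without Tubb1 and Gp9 the sum of the 7 remaining genes was 221 to 269 in KO and 140 to 196 in WT, where 140 is the sum of 7 values at the floor. Plek, Pf4 and Gp5 among these met the test filter largely through the KO arrays and were mostly at the floor in WT. This last sum therefore restates their readings and supports no statement about the set. No KO sample was highest throughout. A13 led at Tubb1, A8 at Gp5 and Plek, A11 at Pf4 and A4 at Itga2b. In sorted bulk samples, a change in the number of platelet-bearing cells and a change of RNA per cell cannot be told apart.

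A wider set of 115 platelet and megakaryocyte genes was examined for context. Of these, 104 had a probe under their name, 57 were tested and 33 were at the floor at every probe on all 8 arrays. By the tested probe of highest mean, 3 were higher in KO, none was lower and 54 did not pass, where 2.4% of all 7178 tested genes passed as higher, 3.25% as lower and 5.64% in either direction. Their median log2 difference was 0.22, with 36 of 57 above 0, against a median of 0.11 and 58.3% above 0 over all tested genes.

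Other platelet surface genes gave 2 rises among 8 tested. F2r, which encodes a thrombin receptor that human platelets carry and mouse platelets do not depend on, read 206, 337, 209 and 172 in A4, A8, A11 and A13, and 88.1, 58.8, 25.5 and 45.8 in C4, C6, C8 and C9. All KO samples exceeded all WT samples, a 4.5-fold rise (log2 difference 2.17, SE 0.38, adjusted p = 0.0139 in limma) that kept its call whichever sample was left out, but not with no filter (adjusted p = 0.168 in limma) or with the p-value of the authors' deposited table (0.101 after adjustment). Fcer1g encodes the signalling chain of the platelet collagen receptor GPVI and of Fc receptors on mast and myeloid cells. It read 2410, 2797, 1001 and 1472 in A4, A8, A11 and A13, and 359, 531, 221 and 778 in C4, C6, C8 and C9. The groups did not overlap and KO was 4.17-fold higher (log2 difference 2.06, SE 0.44, adjusted p = 0.032 in limma). That call was lost without A4, A8, A13, C4 or C8, with adjusted p up to 0.0951, with no filter (0.289) and with the p-value of the authors' deposited table (0.119 after adjustment). The 6 others tested did not pass, and 9 of the 22 on the array were at the floor throughout. Named after their values were seen, these included Selp, P2ry12, Tbxa2r and Cd226, and Gp6, the receptor partner of Fcer1g, read 24.7 in C6 and the floor elsewhere. Itgb3, which encodes the beta subunit that pairs with integrin alpha IIb, was above the floor in A8 (24.2), C8 (43.4) and C9 (49.4).

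Granule and secretion genes gave no call among 16 tested. The smallest p-values were those of Unc13d, a priming factor of granule release (log2 difference 1.14, adjusted p = 0.0800 in limma), F13a1, the A subunit of clotting factor XIII (-1.42, 0.126), Stx11 (0.45, 0.254) and Srgn, the granule proteoglycan (0.40, 0.325). The alpha granule genes Ppbp, Thbs1 and Mmrn1 were at the floor at every probe on every array, and were named after their values were seen. Cytoskeletal and signalling genes gave no call among 18 tested. Tbxas1, which makes thromboxane, had a log2 difference of 1.25 (adjusted p = 0.147 in limma), Vcl of 0.54 (0.154), Tpm4 of -0.75 (0.203) and Ctnnal1 of -0.54 (0.224). The platelet myosin light chain gene Myl9 and the talin gene Tln1, also named after their values were seen, were at the floor throughout.

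Of 16 tested transcription factor genes, 1 rose. Ldb1, whose protein bridges GATA1 and TAL1 complexes, read 2346, 2362, 2331 and 2432 in A4, A8, A11 and A13, and 1586, 1507, 1438 and 1606 in C4, C6, C8 and C9. The spread within each group was small and KO was 1.54-fold higher (log2 difference 0.63, SE 0.15, adjusted p = 0.0477 in limma). The call was lost in all 8 fits that left out 1 sample, with adjusted p between 0.0551 and 0.13, and with arrays centred on the median (0.0527). Some factors that drive megakaryocytes were dim here. Fli1, an ETS factor, was above the floor only in A4 (24.1), and Gata2 read 70.3, 83.8, 42.7 and 20 in A4, A8, A11 and A13 and at most 20.4 in WT (log2 difference 1.24, adjusted p = 0.105 in limma). Without A13 Gata2 passed as higher (log2 difference 1.65, adjusted p = 0.0216 in limma). Nfe2, which megakaryocytes and erythroid cells share, was bright in both groups (KO 3518 to 4907, WT 3655 to 4814, adjusted p = 0.937 in limma). These 3 genes were also named after their values were seen.

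**Figure D3:**
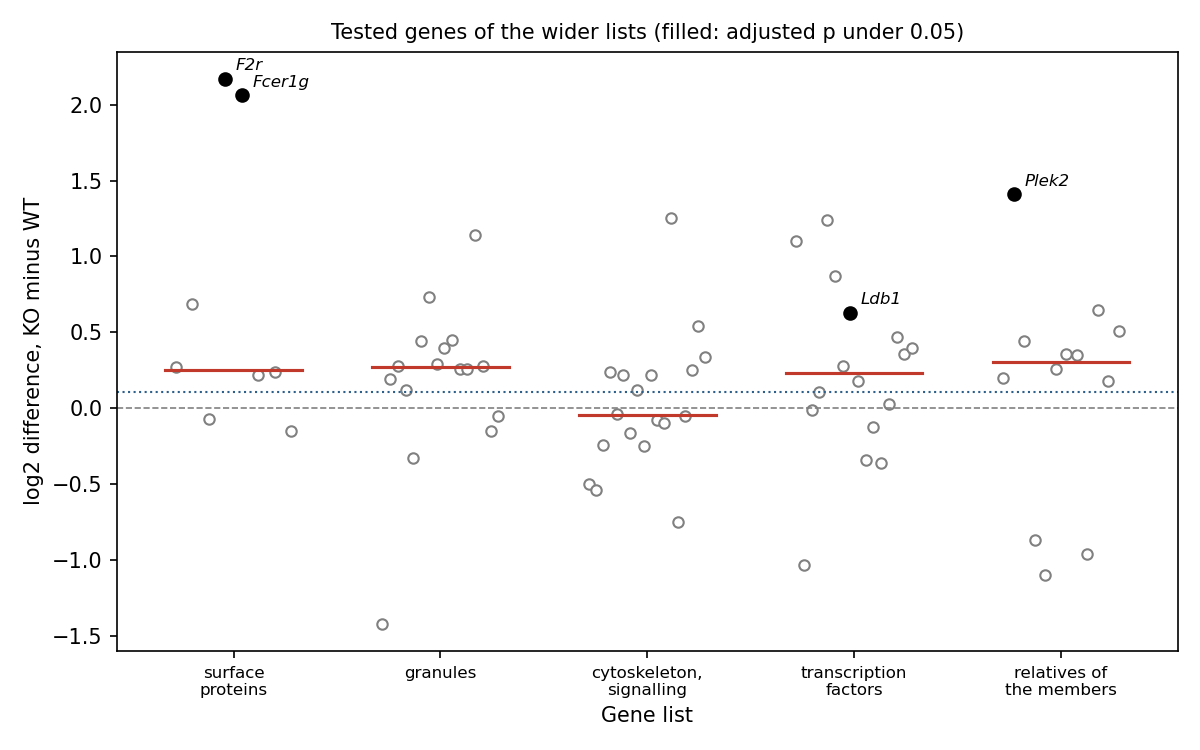
Log2 difference of KO minus WT (y axis) for the tested genes of the 4 wider lists and of the relatives of the members, a point per gene by its brightest tested probe. Filled, named points passed at an adjusted p under 0.05, the red bars are list medians and the dotted line is the median of 0.11 over all tested genes. The calls are F2r, Fcer1g, Ldb1 and Plek2.

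Among relatives of the members, the relative of Plek passed where Plek did not. Plek2 encodes pleckstrin 2, known in mice for its part in late red cell precursors. Its probe ILMN_2772855 read 736, 456, 1024 and 584 in A4, A8, A11 and A13, and 219, 196, 397 and 240 in C4, C6, C8 and C9. Its probe ILMN_2855998 read 597, 594, 875 and 584 in the KO samples, and 172, 197, 375 and 240 in the WT samples, in the same order. Neither probe overlapped between the groups, and KO was 2.65-fold (adjusted p = 0.0354 in limma) and 2.77-fold (adjusted p = 0.0178 in limma) higher. The first lost its call without any sample but A8 or C8 (adjusted p up to 0.0987) and the second when A11, A13, C4 or C9 was left out, with adjusted p of at most 0.0562 there. Both calls were also lost with no filter (0.26 and 0.157) and with the p-value of the authors' deposited table (0.109 and 0.0944 after adjustment). Whether Plek and Plek2 differ in their response was not tested. None of the 11 other tested relatives passed. The other beta-tubulin genes with the smallest p-values, named after their values were seen, went in opposite directions. The ubiquitous Tubb4b had a log2 difference of 0.65 (adjusted p = 0.0921 in limma), and the neuronal Tubb3 one of -0.96 (adjusted p = 0.102 in limma).

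Some markers of other marrow cells differed between the groups, while the summed intensities of most lists overlapped. Of 6 tested mast cell and basophil genes, Cpa3, a mast cell protease gene, was 6.18-fold and Fcer1a, the alpha chain of the IgE receptor, 3.16-fold higher in KO, whereas the basophil protease gene Prss34 was 3.91-fold lower. The 11 mast cell and basophil genes on the array had summed intensities of 907 to 1999 in KO and 623 to 1351 in WT, with the mast cell genes Tpsb2, Tpsab1 and Mcpt4 and the receptor gene Ms4a2 at the floor throughout. None of 4 tested stem and progenitor genes passed, and their list summed to 283 to 643 in KO, highest in A8, and to 277 to 323 in WT. No tested neutrophil (14) or macrophage (11) gene passed, and their lists overlapped between KO and WT (neutrophil 52756 to 103202 against 49594 to 90205, macrophage 2400 to 9983 against 4116 to 8889). So did the T and NK cell list (1194 to 2152 against 1088 to 1471), in which Cd2 was 3.26-fold lower in KO. The summed intensity of the B lineage list was lower in all KO samples (2894 to 6664) than in any WT sample (7951 to 13113), and so was that of the erythroid list (116757 to 130861, against 156479 to 204042). Each such sum is weighted to its brightest probes and does not measure a number of cells. In C4 the brightest B lineage genes were Cd74 (3790) and the class II genes H2-Ab1 (2381) and H2-Eb1 (1949). By gene, 1 of 12 tested B lineage genes passed as lower, the class II gene H2-Aa (2.04-fold), and 5 of 20 tested erythroid genes, Hbb-b2, Alas2, Bnip3l, Trim10 and Xpo7 (1.74-fold to 5.84-fold), while 4 of the 20 had a higher mean in KO. The part of any of these cells in the differences of the platelet genes was not tested.

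**Figure D4:**
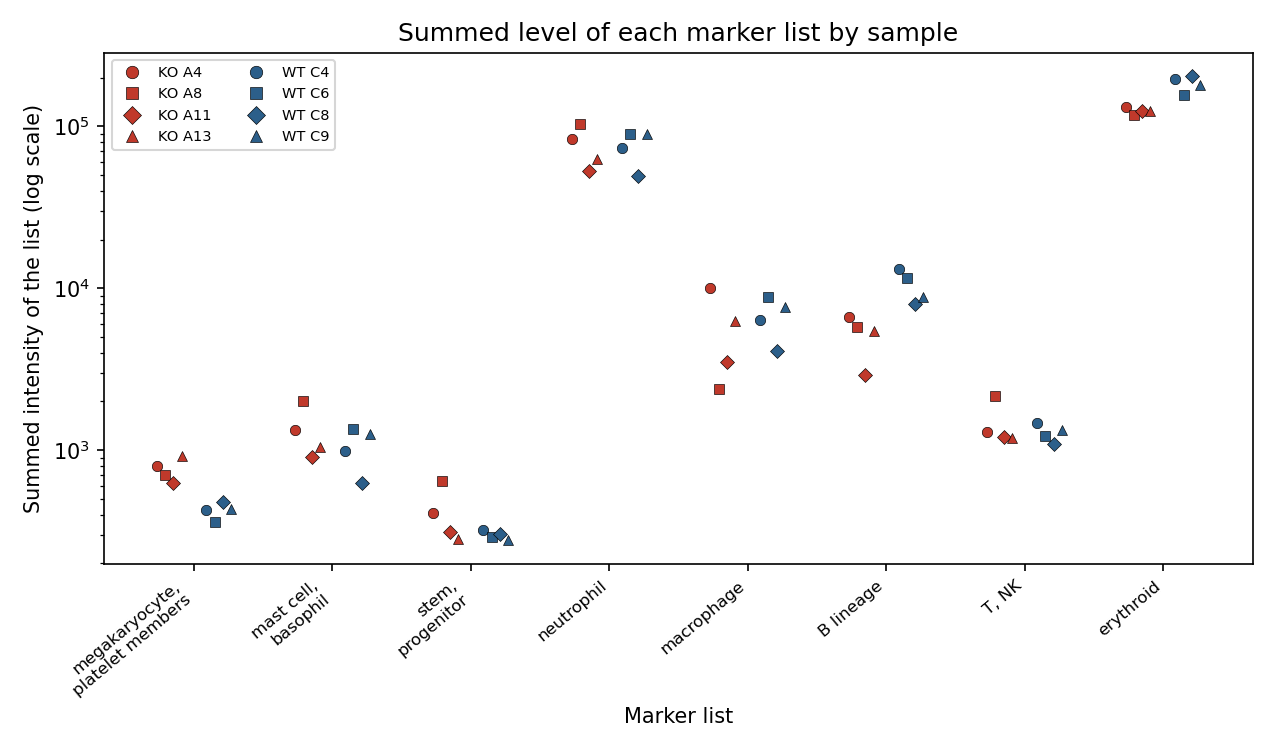
Summed intensity on a log axis of each marker list, a gene counted by its brightest probe, with a point for each of the 4 KO samples (red) and 4 WT samples (blue). The summed member genes (KO 627 to 918, WT 362 to 482), the B lineage and the erythroid sums separate the groups, and the 5 other sums plotted overlap. Without Tubb1 the member sums overlap as well (KO 460 to 528, WT 342 to 462).

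The 5 tested genes most like Tubb1 over the 8 arrays, and the 5 most like Pf4, were listed for description. By the root mean square distance between log2 values, each centred on its own mean, the nearest of 7177 genes to the bright Tubb1 probe were Trib3, a stress-induced pseudokinase gene (0.55), Nccrp1 (0.61), Chac1, which degrades glutathione (0.65), Scin, which encodes an actin-severing protein (0.69), and Cpa3 (0.80). For Pf4 the nearest were Klf6 (0.20), Ints8 (0.26), Ecpas (0.27), Rsbn1l (0.28) and Polk (0.28). No member was among the 5 nearest of Tubb1 or of Pf4. The values were not scaled, so this distance follows the size of the difference between KO and WT. That log2 difference was 3.53 for Tubb1 and at most 0.88 for the other tested members. None of them could therefore be among the nearest of Tubb1, and their absence there carries no information. None of the 5 nearest of Tubb1 was on the wider platelet and megakaryocyte lists either. The largest log2 differences on those lists were 2.17 (F2r) and 2.06 (Fcer1g), so that absence too was nearly fixed in advance.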

How the data were processed

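RNA of 8 samples (4 KO, 4 WT, grouped by title; biotin-labelled from 100 ng of RNA, as the labels state) was measured on Illumina bead arrays. The intensity values deposited by the authors come from BeadStudio 3.1.3 according to the submitters' processing notes, with settings not given. The arrays shared 1 value (within 0.1 percent) at 4959 of the top 5000 ranks, the mark of quantile normalization, which removes differences in overall brightness. The second table deposited by the authors gives a signed fold score, equal to the ratio of geometric means for all 45281 probes, and a p-value, equal to that of an unequal-variance test of log2 intensities at each of the 18468 probes with a p-value (tolerance 1e-04 in each). A further table was not used, because its 8 signal columns match no sample label.

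Intensities were converted to log2. Probes above the floor of 20 on at least 4 of 8 arrays were tested by lmFit and eBayes in limma 3.58.1 (R 4.3.3), with Benjamini-Hochberg adjustment over all 12259, threshold 0.05 and no covariate, and the fit was tested on simulated data. A fold against a group wholly at the floor is a lower bound ("at least"). The number of arrays limits the precision. Gene names come from the array table, with older symbols updated through RefSeq (GRCm38.p6). The members, lists and tests were chosen with earlier results of these data known. Genes named are all members, Trim28, each wider list's passing genes (or its 4 of smallest p), passing genes of other cell types, and the 5 genes most like Tubb1 or Pf4. Others, among them Klf1, Tfrc, Itgb3, Tpsb2, Tpsab1, Mcpt4, Ms4a2 and the neighbouring genes, were chosen after their values were seen. Alternatives were other filters, an offset of 30, array weights, an intensity trend, median centring, the deposited p-value and leaving out each sample.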

Additional observations from a re-analysis of the deposited data

Results flagged for a closer look

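In groups of 4 samples, 6 of the 28 groups of member probe values held a sample whose gap to the others exceeded Dixon's critical value, on log2 intensities. Only 15 of the 28 groups had any value above the floor, and chance gives about 1 in 20 groups. In 5 of the 6 the other samples were all at the floor, so that any single value above it stands apart. These were Tubb1 probe ILMN_2987747 in A13 (32.3) and in C9 (21.0), Pf4 in C6 (20.2), Plek in C6 (27.8) and Treml1 in C9 (26.2). The sixth was Itga2b probe ILMN_2732623 in A4 (33.3), where the other KO samples lay between the floor and 21.5. Of the WT samples, C6 and C9 held 2 of these values each.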

How the results depend on the processing

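The direction of all 6 tested member probes was KO higher under every alternative that kept the probe, and the 5 that did not pass did not pass under any of them. For Tubb1, Gp5, Pf4 and Plek that direction was nearly fixed in advance. They were at the floor in WT, except in C6 for Pf4 and Plek, and met the filter largely through the KO arrays. The shared direction therefore supports no statement about the set. Tubb1 passed in all but 2 alternatives. With the authors' deposited p-value no member probe passed (0 higher), the adjusted p of Tubb1 being 0.0877 at the same log2 difference of 3.53. When probes had to be above the floor on all 8 arrays, 0 passed, because Tubb1 was then not tested. With an offset of 30 added before log2, its difference was 2.40. The 301 higher and 381 lower probes over all tested became 74 and 78 with no filter, 171 higher with all 8 arrays above the floor, 836 and 702 with array weights, and 94 and 114 with the deposited p-value. Leaving out 1 sample gave 91 (C4), 97 (C9), 99 (A13), 119 (A11), 149 (C8), 182 (A4), 289 (A8) and 557 (C6) higher, and 162 (A13), 163 (C4), 173 (C9), 197 (A11), 219 (A4), 245 (C8), 317 (A8) and 586 (C6) lower. The cause was not tested. The 3 higher genes of the wider lists became 1 (Ldb1) with no filter or with the deposited p-value, and 1 (F2r) without A4, A8, C4 or C8, with 2 in the other 4 such fits. Array weights gave 4 higher genes there, Unc13d being added (log2 difference 0.85, adjusted p = 0.042 in limma), and 2 lower genes (F13a1 and Ets1). F2r, Fcer1g and Plek2 did not pass with no filter or with the deposited p-value, and Ldb1 did not pass with arrays centred on the median (adjusted p = 0.0527 in limma). No paired analysis was possible because the sample codes name no pairs. Signal near the floor limits all member probes other than Gp9, the bright Tubb1 probe included, whose WT values are only a bound.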

Other observations

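Genes next to the members in the RefSeq annotation (GRCm38.p6, used for gene order only) were read at their own probes. Atp5e, a neighbour of Tubb1 that encodes a subunit of ATP synthase, read 35.9, 48.8, 52.2 and 47.2 in A4, A8, A11 and A13, and 20, 20, 31.4 and 24.6 in C4, C6, C8 and C9, a 1.93-fold rise (adjusted p = 0.0404 in limma). On the other side of Tubb1, the cathepsin gene Ctsz did not pass at either probe (log2 differences 0.63 and 0.68). Atp13a3, a neighbour of Gp5 that encodes a polyamine transporter, read 32.9, 44.5, 46.5 and 36.7 in the KO samples and at most 20.1 in WT at probe ILMN_1258916 (1.98-fold, adjusted p = 0.0161 in limma). A second probe of Atp13a3, ILMN_1256271, did not pass (log2 difference -0.23, adjusted p = 0.694 in limma), and its remaining probe was at the floor throughout. Ppbp and Cxcl3, which flank Pf4, were at the floor in every sample.

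Septin5, whose gene overlaps Gp1bb in this annotation, read 27.8, 26.3, 20 and 28.9 in A4, A8, A11 and A13, and 55.5, 25.4, 40.1 and 84.7 in C4, C6, C8 and C9 at probe ILMN_2626648, and did not pass (log2 difference -0.87, adjusted p = 0.160 in limma). Its other probe, like Gp1bb, was at the floor throughout. Rab43, a neighbour of Gp9, did not pass at its brighter probes, ILMN_1250910 (log2 difference -0.83, adjusted p = 0.126 in limma) and ILMN_3155342 (-0.79, 0.213).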
